A study of Mus musculus with 16 samples.

Results

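WT bone marrow was compared with WT MC38 tumor by RNA-seq, 3 libraries against 3, over every gene that passed a filter on low counts in these 6 libraries. This left 15730 genes tested of the 55536 in the table, and 6 of the 16 libraries of the series. By its labels the series set KLF K74R mice beside WT mice, in bone marrow, in samples labelled MSC and in tumors. The difference between tissues within WT, described here, is set by the same libraries and was not its stated question. Both groups have the genotype label KLF WT, and the labels give no strain, age or treatment for either. The bone marrow samples are whole tissue by their label, with no sort or gate given. The tumors were of MC38 cells, with a labelled size of at most 1000 mm3. MC38 is a single established line from a colon adenocarcinoma of a mouse, so the tumor libraries mix its transcripts with those of the host cells that entered the tumor, and counts cannot assign a transcript to either. Nothing in the labels says that the replicates came from separate mice, so p-values here cover the spread among these libraries only, and that spread may be technical.

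Bone marrow is the site of blood formation. Erythroid precursors fill with hemoglobin there, neutrophils are made in successive granule stages, B cell precursors rearrange their immunoglobulin genes, and a sparse stroma supplies retention and growth signals. A solid tumor grown from a cell line is built around attached, matrix-producing malignant cells, with vessels, macrophages and lymphocytes of the host among them. In such mixtures fewer cells of a type and less RNA per cell cannot be told apart.

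Values are CPM, edgeR counts scaled to library totals that were corrected by the trimmed mean of M-values, given per library in replicate order or as mean ± SD (n = 3). Log2 fold changes are tumor over bone marrow, so that a negative value is higher in bone marrow. A gene is called higher in a tissue where edgeR's quasi-likelihood test gave a Benjamini-Hochberg adjusted p under 0.05 over all genes tested. Total counts ran from 14079626 to 15858275 in bone marrow and from 16817282 to 18923751 in tumor. Over a group, 3 counts correspond to 0.0706 CPM in bone marrow and 0.0519 CPM in tumor, a limit that covers counting error only. Correlations of log2 CPM were at least 0.987 within bone marrow, at least 0.992 within tumor and between 0.700 and 0.719 across the tissues. Bone marrow library 3 held 0.781% of its counts in CT010467.1, a gene model with no proper name, against 0.205% and 0.179% in the other bone marrow libraries and 0.705% to 0.948% in tumor.

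Most genes differed. Of the 15730 genes, 12350 (78.5%) were called, 6228 (39.6%) higher in tumor and 6122 (38.9%) higher in bone marrow. Against a fold of 2, tested with edgeR's glmTreat, 6673 genes (42.4%) passed, 3173 (20.2%) higher in tumor and 3500 (22.3%) higher in bone marrow. For 2636 genes (16.8%) the 95% interval of the fold change lay wholly within a fold of 1.5. The median log2 fold change over all genes was 0.021. For 12878 genes (81.9%) the libraries of the tissues did not overlap. The counts of gene lists below are to be read against these shares. There were 236 tested genes with no count in any tumor library and 299 with none in any bone marrow library.

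**Figure D1:**
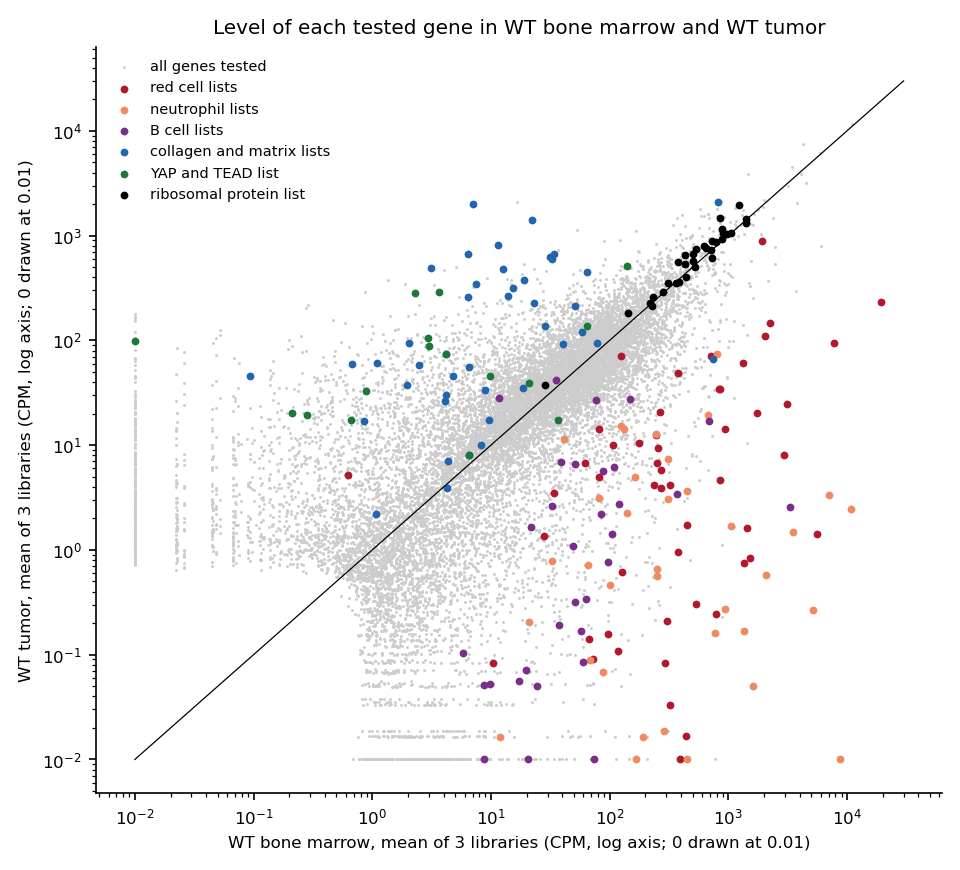
Mean CPM of each tested gene in WT bone marrow (x axis) and WT tumor (y axis), both on log axes with 0 drawn at 0.01, with gene lists in colour and the line of equal level in black. Red cell, neutrophil and B cell genes lie mostly far below the line, collagen, matrix and YAP genes mostly above it, and ribosomal protein genes along it.

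The most abundant transcripts of the tissues were shared in part. In bone marrow the 15 genes of highest CPM included the globins Hbb-bs and Hba-a1, the neutrophil genes S100a9, Ngp, S100a8 and Ltf, the red cell anion exchanger Slc4a1, the lysozyme gene Lyz2 and the proliferation antigen Mki67. In tumor they included the fibronectin gene Fn1, the collagen gene Col3a1, the secreted phosphoprotein gene Spp1 and the chaperone genes Hsp90ab1 and Hspa8. The mitochondrial genes mt-Co1 and mt-Nd1, the elongation factor gene Eef1a1, the actin gene Actb, the poly(A)-binding protein gene Pabpc1 and CT010467.1 stood among them in both. Per kilobase of exon, where genes of different length can be compared, Hbb-bs reached 25034 RPKM in bone marrow, S100a9 20840 RPKM, S100a8 10202 RPKM and Ngp 7215 RPKM. In tumor Eef1a1 stood at 2444 RPKM, S100a6 at 436 RPKM and Spp1 at 1259 RPKM, while Col3a1, a longer transcript, was at 205 RPKM.

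Red cell genes were far higher in bone marrow. Hbb-bs, the major adult beta globin (ENSMUSG00000052305, chr7:103826534-103828096, minus strand, GRCm38), measured 16917, 17814 and 22949 CPM in the bone marrow libraries and 454, 135 and 115 CPM in the tumor libraries. Its log2 fold change was -6.36 ± 0.56 (SE), with an edgeR quasi-likelihood adjusted p of 3.93e-06. The groups did not overlap, and tumor library 1 was well above the other tumor libraries. Hba-a1 was likewise higher in bone marrow, at 8107, 6779.7 and 8491 CPM against 180.2, 58 and 42.9 CPM in tumor. Hbb-bs and Hbb-bt, and Hba-a1 and Hba-a2, are near-identical copies, and the sources used here do not give how reads were divided between them.

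All 15 genes tested of globin and heme synthesis were higher in bone marrow and past a fold of 2, against 38.9% and 22.3% of all genes, with a median log2 fold change of -4.31. The enzymes followed the globins: Alas2, which makes the first heme precursor in red cells, measured 1752 ± 160.4 CPM in bone marrow and 20.4 ± 17.3 CPM in tumor, and Fech, which inserts the iron, 1328 ± 270.1 and 60.6 ± 2.96 CPM. Cpox, another enzyme of the pathway, differed less (710.0 ± 128 against 71.7 ± 6.44 CPM). Slc25a37, the mitochondrial iron importer, was still at 145 ± 9.71 CPM in tumor.

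Of the red cell membrane and cytoskeleton genes, 17 of 18 tested were higher in bone marrow, with a median log2 fold change of -9.51, further from 0 than that of the globin and heme list. Slc4a1 measured 6411, 4459 and 5865 CPM in bone marrow and 2.74, 0.842 and 0.672 CPM in tumor. The beta spectrin gene Sptb and the Rh-associated glycoprotein gene Rhag were at 1451 and 437 CPM in bone marrow and at 1.62 and 0.0169 CPM in tumor. Tumor library 1, the highest of the tumor libraries for the globins, was also the highest of them for Slc4a1. The exception was Bcam, a laminin receptor of red cells that epithelial and endothelial cells also carry, which was higher in tumor (0.629 against 5.19 CPM).

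The regulators of red cell formation were called higher in bone marrow in 18 of 18 cases, 16 of them past a fold of 2. Klf1, the erythroid Kruppel-like factor, measured 129, 108 and 145 CPM in bone marrow and 0.660, 0.495 and 0.672 CPM in tumor (log2 fold change -7.70 ± 0.18, edgeR adjusted p = 1.04e-09). Its partners Gata1 (117 against 0.108 CPM), Tal1 (379.6 against 0.963 CPM) and Gfi1b (66.8 against 0.140 CPM) showed the same separation. Carbonic anhydrase 1, Car1, had 304, 478 and 399 CPM in bone marrow and no count in tumor, at least 7586-fold higher when the tumor group is set at 3 counts. The members nearest to each other in the tissues were Ldb1, a widely used bridging cofactor, at 124 and 70.4 CPM, and the transferrin receptor gene Tfrc, at 1906 and 890.4 CPM.

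The promoters of a pair of these genes are shown because Klf1 and Gata1, both higher in bone marrow, bind short words that can be looked for there. The 150 bases before the RefSeq start of each gene (GRCm38.p6) run from 5′ to 3′ in the direction of the gene, with the words CCNCNCCC, of the Kruppel-like factors, and AGATAA, of the GATA factors, in capitals on either strand. GENCODE release M21 has transcripts of Hbb-bs and Alas2 that start farther upstream than the RefSeq start. Hbb-bs lies at chr7:103827929-103828078 on the minus strand and Alas2 at chrX:150547267-150547416 on the plus strand.
Hbb-bs: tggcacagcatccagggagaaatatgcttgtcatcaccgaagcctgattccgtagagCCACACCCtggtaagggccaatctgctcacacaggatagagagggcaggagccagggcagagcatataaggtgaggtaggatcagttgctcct
Alas2: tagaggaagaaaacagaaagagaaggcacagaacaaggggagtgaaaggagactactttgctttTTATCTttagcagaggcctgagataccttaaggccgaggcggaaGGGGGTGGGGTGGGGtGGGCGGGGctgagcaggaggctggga
The Hbb-bs stretch holds 1 CCNCNCCC word and no AGATAA. The Alas2 stretch holds 4 closely spaced CCNCNCCC words, most of them overlapping, here on the other strand. It also holds 1 AGATAA word, on the other strand too. Over all 27025 RefSeq promoter windows of 250 bases before and 50 after a start, 49.2% hold CCNCNCCC and 11.4% hold AGATAA, so a match describes these letters and no binding.

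Platelet and megakaryocyte genes were higher in bone marrow in 17 of 17 cases (median log2 fold change -7.20). The platelet chemokine gene Ppbp measured 473, 1133 and 1074 CPM in bone marrow and 0.812, 1.19 and 1.34 CPM in tumor. Bone marrow library 1 was the lowest of its group, and the summed level of the list was 2187 CPM in that library against 4642 and 4199.6 CPM in the other bone marrow libraries. Pf4, Itga2b and the tubulin gene Tubb1 were at 169, 211 and 149 CPM in bone marrow and 11, 2.41 and 0.0660 CPM in tumor.

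Neutrophil genes were far higher in bone marrow, and the largest fold change toward bone marrow among the named genes was that of Ngp. This gene, of the neutrophilic granule protein (ENSMUSG00000032484, chr9:110419747-110423012, plus strand, GRCm38), measured 9435, 8528 and 8487 CPM in bone marrow and had no count in any tumor library, at least 169960-fold higher in bone marrow. Elane, the neutrophil elastase gene, and Ms4a3, expressed in progenitors of granulocytes and monocytes, also had no count in tumor, with 450.1 ± 56.5 and 167 ± 25.8 CPM in bone marrow. Of the primary granule and progenitor genes, 12 of 12 were higher in bone marrow (median log2 fold change -7.77). The peroxidase gene Mpo, which marks the first granules, measured 1814, 1419 and 1601 CPM against 0.0508, 0.0990 and 0 CPM.

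The late neutrophil genes were higher in bone marrow in 24 of 24 cases, with a median of -9.10. S100a9 and S100a8, the subunits of calprotectin, measured 10878 ± 828 and 7080.1 ± 386 CPM in bone marrow and 2.46 ± 0.969 and 3.37 ± 0.286 CPM in tumor. Ltf (lactoferrin) and Camp (cathelicidin), of the secondary granules, were at 5160 and 1344 CPM in bone marrow and 0.270 and 0.167 CPM in tumor. Ly6g, the antigen used to sort mouse neutrophils, was at 91, 92.9 and 81.5 CPM in bone marrow and 0.0508, 0.0990 and 0.0560 CPM in tumor. Summed over the list, the tumor libraries held 142, 113 and 160.0 CPM, of which Mmp9, a gelatinase that macrophages also express, made up the largest part (74.2 ± 9.65 CPM).

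Eosinophil, basophil and mast cell genes followed, with 16 of 16 higher in bone marrow. Prg2, the eosinophil major basic protein, measured 719, 896 and 709 CPM in bone marrow with no count in tumor, at least 14982-fold. The eosinophil peroxidase gene Epx was at 207 and 0.0165 CPM and the basophil protease gene Prss34 at 110.2 and 0.0165 CPM. The connective tissue mast cell proteases Cma1, Mcpt4 and Tpsb2 did not pass the filter on low counts and stood at 0.489, 0.741 and 0.371 CPM in tumor.

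Genes of stem and progenitor cells did not move as a block. Of 18 tested, 11 were higher in bone marrow and 5 in tumor. Myb, a regulator of immature blood cells, measured 258 ± 21.7 CPM in bone marrow and 1.05 ± 0.259 CPM in tumor, and the receptor genes Kit and Flt3 110.1 and 35.4 CPM against 8.51 and 0.609 CPM. The 5 members higher in tumor were Cd34 (44 against 269.6 CPM), Ly6a, the Sca-1 gene (8.19 against 103), Mecom (1.13 against 33.2), Procr (0.781 against 27.6) and Hoxa9 (5.44 against 23.3). All of these are also expressed outside blood, Cd34 and Procr in endothelium and Ly6a in fibroblasts.

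B cell genes were higher in bone marrow from early to mature stages. Rag1, which cuts the antigen receptor genes for rearrangement, measured 64.2, 116 and 43.3 CPM in bone marrow and had no count in tumor, at least 1465-fold higher. Of 12 early B cell genes tested, 11 were higher in bone marrow, and Lef1, a transcription factor used in many tissues, was higher in tumor (11.7 against 28.1 CPM). Among mature B cell genes, 19 of 20 were higher in bone marrow (median log2 fold change -5.59), including Ighm (691 against 16.9 CPM). Cd72 was not called, at 35.2 ± 13.8 CPM in bone marrow and 41.8 ± 3.56 CPM in tumor, but without bone marrow library 2 its edgeR adjusted p was 0.00175, higher in tumor. Pax5 and Ebf1, which specify the lineage, measured 148 ± 52.4 and 77.2 ± 28.7 CPM in bone marrow and 27.6 ± 1.89 and 26.8 ± 7.45 CPM in tumor.

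Of 12 plasma cell genes, 10 were higher in bone marrow, among them the immunoglobulin joining chain gene Jchain (107 against 1.04 CPM) and Igha (125 against 0.156 CPM). Sdc1, the syndecan that marks plasma cells and many epithelial and mesenchymal cells, went the other way (9.94 against 94.4 CPM), as did Prdm1 (3.24 against 11.5 CPM). All 107 immunoglobulin variable segments tested were higher in bone marrow, with a median log2 fold change of -7.93. These segments share sequence, and their reads may be divided among copies.

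The transcription factors and cytoskeletal genes of blood cells were nearly all higher in bone marrow. Of 26 lineage transcription factors of blood, 23 were higher in bone marrow and 22 past a fold of 2, with a median of -3.27. Ikzf1 measured 578 ± 39.8 CPM against 21.1 ± 0.967 CPM, and Spi1, which encodes PU.1 and is active in macrophages too, 156 ± 9.43 CPM against 21 ± 2.19 CPM. The 3 exceptions were Tcf7 (4.58 against 37.2 CPM), Cebpb (12.1 against 29.6) and Gata3 (1.22 against 3.39). Of 21 cytoskeletal and adhesion genes of blood cells, all 21 were higher in bone marrow. Ptprc, which encodes CD45 and marks nearly every nucleated blood cell, measured 762, 755 and 653 CPM in bone marrow and 129, 110.3 and 134 CPM in tumor (fold 5.81 higher in bone marrow, edgeR adjusted p = 2.24e-08).

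**Figure D2:**
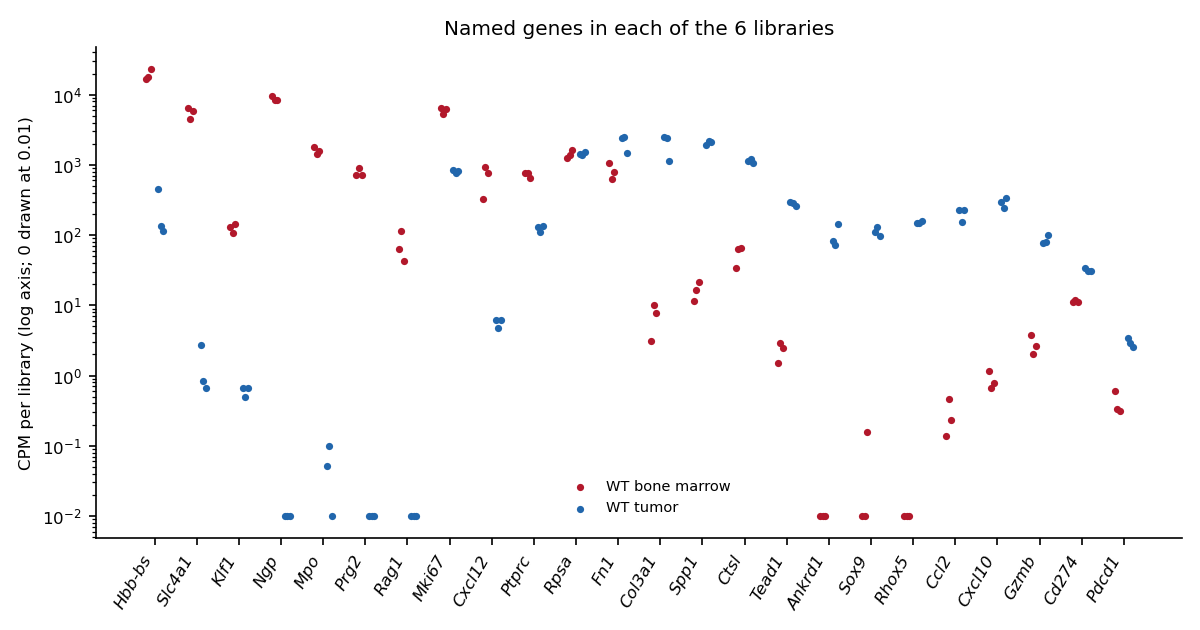
CPM of 24 named genes in each library on a log axis, with the 3 WT bone marrow libraries in red and the 3 WT tumor libraries in blue, and 0 drawn at 0.01. The tissues do not overlap for any gene shown except Rpsa, a ribosomal protein gene. Of all genes tested, 81.9% did not overlap, and some genes shown were named by a rule that required no overlap.

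Proliferation genes were mostly higher in bone marrow, in most cases by modest folds. Mki67 measured 6531, 5368 and 6351 CPM in bone marrow and 842, 755 and 816 CPM in tumor, a log2 fold change of -2.92 ± 0.12 (SE). Of 24 mitosis genes, 21 were higher in bone marrow and 0 in tumor, but 8 passed a fold of 2 and 10 had an interval within a fold of 1.5, and the median was -0.79. Top2a, the replication topoisomerase, was within a fold of 1.5, at 1625 ± 46.5 and 1258 ± 9.23 CPM. Of 27 DNA replication genes, 21 were higher in bone marrow and 6 passed a fold of 2 in that direction. Pcna was higher in bone marrow (580.2 against 227 CPM), and Gins2 and Rfc3 were higher in tumor. Orc6 was called higher in tumor at an edgeR adjusted p of 0.0492. The call was lost in 8 of the alternatives tried, among them those without bone marrow library 1, bone marrow library 2 or tumor library 3 (0.127, 0.154 and 0.128). No growth rate was measured here.

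Collagen and matrix genes were higher in tumor. Col3a1, a fibrillar collagen (ENSMUSG00000026043, chr1:45311538-45349706, plus strand, GRCm38), measured 3.06, 10.1 and 7.83 CPM in bone marrow and 2507, 2381 and 1154 CPM in tumor. The log2 fold change was 8.17 ± 0.47 (SE), with an edgeR quasi-likelihood adjusted p of 1.84e-07. Tumor library 3 stood below the other tumor libraries for this gene and for Fn1, at 2389, 2457 and 1468 CPM, against 1049, 628 and 803 CPM in bone marrow. The groups did not overlap for either.

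Of 17 collagen genes tested, 15 were higher in tumor and all 15 past a fold of 2, with a median log2 fold change of 4.29. The collagen VI genes Col6a1, Col6a2 and Col6a3, whose products join in a single trimer, were at 1421, 820.4 and 661 CPM in tumor and 22.1, 11.4 and 6.44 CPM in bone marrow. Col4a1 and Col4a2, of basement membranes, were at 669 and 378 CPM against 34.2 and 19.1 CPM. Col1a2 was not called (77.6 ± 53.2 CPM in bone marrow and 93.9 ± 27.3 CPM in tumor), although Col1a1, the other chain of collagen I, was higher in tumor (51.1 against 214 CPM). Col12a1 was not called either, at 9.65 and 17.4 CPM. Without bone marrow library 2 both were called higher in tumor, with edgeR adjusted p-values of 0.0032 and 0.00623.

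The matrix glycoproteins and crosslinking enzymes were higher in tumor in 20 of 26 cases. Plod2, a lysyl hydroxylase of collagen, measured 3.15 ± 1.24 CPM in bone marrow and 493 ± 90.6 CPM in tumor, and Serpinh1, the collagen chaperone, 12.7 ± 7.81 and 480.0 ± 11.5 CPM. The laminin chains Lamb1 and Lamc1 were at 345 and 604 CPM in tumor. Thbs1, the thrombospondin that platelets carry, was the member higher in bone marrow (738 ± 128 against 66.5 ± 15.6 CPM). The lysyl oxidases Lox, Loxl1 and Loxl2 were not called, at 8.25, 4.25 and 4.37 CPM in bone marrow and 10.1, 3.86 and 7.08 CPM in tumor, but Loxl2 reached an edgeR adjusted p of 0.0447 without bone marrow library 2 and 0.0285 without tumor library 2.

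Fibroblast genes split. Of 18 tested, 13 were higher in tumor, led by Vim (574 against 1792 CPM), Pdgfra (12.3 against 226) and Twist1 (0.462 against 21.4). The 4 higher in bone marrow were Pi16 (64.5 against 4.73 CPM), Col14a1 (37.2 against 8.99), the fibroblast activation protein gene Fap (6.78 against 2.25) and Tagln (1.36 against 0.235). Of 18 regulators of mesenchymal transition, 14 were higher in tumor, Snai1 from 1.30 to 80.5 CPM, while Zeb1 and Tgfb1 were higher in bone marrow.

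Genes of the YAP and TEAD axis, through which attached cells read tension and density, were higher in tumor in 14 of 16 cases (median log2 fold change 4.78). Ankrd1, a target of the axis (ENSMUSG00000024803, chr19:36111961-36120099, minus strand, GRCm38), had no count in bone marrow and 82.3, 72.6 and 143 CPM in tumor, at least 1385-fold higher. The DNA-binding partner Tead1 measured 1.495, 2.86 and 2.50 CPM in bone marrow and 293, 286 and 263 CPM in tumor. The coactivators Yap1 and Wwtr1 were at 2.97 and 3.64 CPM in bone marrow and 105 and 292 CPM in tumor. Of the widely used target genes, Ccn1 was higher in tumor (4.2 ± 3.16 against 74.1 ± 13.7 CPM) and Ccn2 was not called (6.48 ± 3.15 against 8.14 ± 2.22 CPM), except without bone marrow library 3 (edgeR adjusted p = 0.03). Lats2, a kinase that restrains YAP, was the member higher in bone marrow (36.9 against 17.5 CPM).

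The promoters of Ankrd1 and Ccn1 are shown for the word CATTCC, which TEAD factors bind, in capitals on either strand. The 150 bases before the RefSeq start (GRCm38.p6) are given 5′ to 3′ in the direction of the gene. GENCODE release M21 has an Ankrd1 transcript that starts farther upstream. Ankrd1 lies at chr19:36119845-36119994 and Ccn1 at chr3:145649986-145650135, both on the minus strand.
Ankrd1: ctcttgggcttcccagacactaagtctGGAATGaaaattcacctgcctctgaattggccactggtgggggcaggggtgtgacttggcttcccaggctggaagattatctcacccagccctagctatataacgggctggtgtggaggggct
Ccn1: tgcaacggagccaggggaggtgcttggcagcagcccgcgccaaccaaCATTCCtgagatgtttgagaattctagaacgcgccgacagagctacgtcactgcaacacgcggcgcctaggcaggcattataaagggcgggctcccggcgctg
Each stretch holds 1 CATTCC word, in Ankrd1 on the other strand, and 14.7% of all RefSeq promoter windows hold it. Promoters were looked up by symbol, and 11181 of 15728 symbols tested had an entry, under 80%, so no shares over gene lists are given.

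Adhesion genes of attached cells were mostly higher in tumor, but were less one-sided than those of blood cells. Of 25, 17 were higher in tumor and 7 in bone marrow. The summed level of the list was close in both tissues, at 8735, 8845 and 9031 CPM in bone marrow and 8697, 8838 and 8771 CPM in tumor. The caveolin gene Cav1 measured 0.340, 2.06 and 1.64 CPM in bone marrow and 388, 437 and 304 CPM in tumor, Cald1, an actin-binding protein, 89.5 and 894 CPM, and the muscle filamin gene Flnc 0.290 and 219.8 CPM. The 7 higher in bone marrow were Flna, Tln1, Vcl, Zyx, Pxn, Anxa1 and Ezr, the first with 2455 ± 49 CPM against 778 ± 23.2 CPM. Talin, vinculin and paxillin link integrins to actin in platelets and leukocytes as well.

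Hox genes, which record position along the body, were higher in tumor in 24 of 26 cases, 22 past a fold of 2, and the list had a median log2 fold change of 5.15. Levels were low: Hoxa7 was the highest in tumor, at 3.55 ± 0.554 CPM in bone marrow and 39.5 ± 4.13 CPM in tumor. Posterior members were among them, with Hoxd13 (14.5, 14 and 14.5 CPM), Hoxb13 (6.85, 6.14 and 4.54 CPM), Hoxa13 (6.19, 5.40 and 5.10 CPM) and Hoxd10 (4.16, 3.32 and 4.65 CPM) all without a count in bone marrow. Hoxb4, of blood progenitors, was higher in bone marrow (5.69 against 1.23 CPM), and Hoxb3 was not called, but was called higher in tumor in 8 of the alternatives tried, among them those without bone marrow library 1 (edgeR adjusted p = 0.0103) and without tumor library 1 (0.0382).

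Of 18 tested transcription factors of mesenchyme and epithelium, 14 were higher in tumor and 0 in bone marrow, each of the 14 past a fold of 2. Sox9, which specifies cartilage and is active in several epithelia, measured 0, 0 and 0.157 CPM in bone marrow and 109.9, 129 and 98.1 CPM in tumor. Tbx20, of the heart, had no count in bone marrow and 31.7, 27.8 and 32.3 CPM in tumor, at least 432-fold higher. Hmga2, an embryonic chromatin protein, went from 2.12 ± 1.28 to 72.7 ± 6.26 CPM. The intestinal factor Cdx2 had no count in either tissue.

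Fold changes toward tumor were ranked among called genes with an average log2 CPM of at least 5, no overlap and a proper name. The genes with the largest folds under this rule mostly had no count in bone marrow. They were Gzmg, Tex13b, Gzmd, Rhox5, Brinp3, Prkg2, Ankrd1, Gzmf, Lncenc1, Gzme, Osr1, Csmd3, Shisal2b, Gzmc and Sox9. Tbx20, given above, was not among them, although its log2 fold change of 12 exceeded those of Csmd3 (11.42) and Sox9 (11.01). Rhox5, a homeobox gene of the X-linked reproductive cluster (ENSMUSG00000095180, chrX:37804842-37808876, plus strand, GRCm38), measured 147, 151 and 159 CPM in tumor and had no count in bone marrow, at least 2156-fold higher. Tex13b, named for its testis expression, measured 155, 156 and 189 CPM, also without a count in bone marrow. Lncenc1, a long noncoding RNA of embryonic stem cells, was at 80.3 ± 8.34 CPM in tumor and 0 CPM in bone marrow.

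Among the 15 genes ranked by this rule, 5 encode granzymes of a cluster on chromosome 14, a count that holds for the rule only. Gzmc, Gzmd, Gzme, Gzmf and Gzmg measured 127 ± 53.8, 165 ± 60.4, 65.9 ± 24.9, 96.3 ± 40.5 and 181 ± 63.4 CPM in tumor and 0.0522, 0, 0, 0 and 0 CPM in bone marrow. They are similar in sequence, so counts could be divided among them. Gzmb, the granzyme of activated killer lymphocytes, measured 3.74, 1.997 and 2.66 CPM in bone marrow and 78.4, 79.1 and 101 CPM in tumor, and the perforin gene Prf1 1.63, 1.46 and 1.41 and 58.2, 71.8 and 96.9 CPM. Gzma, another granzyme gene, was not called (3.52 ± 0.0760 against 2.71 ± 0.267 CPM).

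Other T and NK cell genes were uneven. Of 24 T cell genes, 6 were higher in tumor, 8 in bone marrow and 10 not called, and the summed level of the list was 98.2, 101 and 99.7 CPM in bone marrow and 95.4, 86.6 and 95.8 CPM in tumor. Cd3e was not called (1.38 ± 0.699 against 2.28 ± 0.738 CPM), except without bone marrow library 1, where it was higher in tumor (edgeR adjusted p = 0.0246). Cd8a was higher in tumor (2.20 ± 0.357 against 7.41 ± 1.35 CPM) and Cd4 higher in bone marrow (13.1 ± 4.47 against 1.25 ± 0.277 CPM). Tcf7, counted in the T cell list too, alone made up 37.2 CPM of the tumor sum. Of 18 tested NK and cytotoxic genes, 9 were higher in tumor, 7 of them past a fold of 2, and 2 in bone marrow (median log2 fold change 0.78). This list holds Gzmb, Gzmc and Prf1, and its summed level was 69.5, 69.8 and 62.4 CPM in bone marrow and 346, 367 and 517 CPM in tumor. Eomes, a transcription factor of NK cells and CD8 T cells, and the chemokine gene Ccl5 were higher in tumor (0.965 and 1.49 against 11.1 and 16.5 CPM). The NK receptor genes Ncr1 and Klrk1 were not called, and Nkg7 was higher in bone marrow (33.9 against 4.80 CPM). Klra4, which encodes the activating NK receptor Ly49D, was higher in tumor, at 0.340, 0.799 and 0 CPM in bone marrow and 56.1, 58.6 and 60.01 CPM in tumor. Whether the granzyme transcripts came from lymphocytes was not tested.

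The checkpoint and costimulation genes were called in each tissue at close to the shares of all genes. Pdcd1, which encodes PD-1, measured 0.612, 0.333 and 0.313 CPM in bone marrow and 3.40, 2.92 and 2.58 CPM in tumor (log2 fold change 2.79 ± 0.35, edgeR adjusted p = 5.01e-05). Cd274, which encodes its ligand PD-L1, measured 11.1, 11.7 and 11.1 CPM and 33.8, 30.9 and 30.3 CPM (log2 fold change 1.48 ± 0.11, edgeR adjusted p = 1.03e-06). Of 23 checkpoint and costimulation genes tested, 10 were higher in tumor and 10 in bone marrow, against 39.6% and 38.9% of all genes. Tnfrsf9 (4-1BB), Cd276 (B7-H3) and Havcr2 (TIM-3) were higher in tumor, at 38.4, 25 and 17.7 CPM against 0.616, 1.36 and 5.19 CPM. Vsir (VISTA), Btla and the phagocytosis signal genes Cd47 and Sirpa were higher in bone marrow, at 333, 25.5, 935 and 271 CPM against 37.5, 0.865, 270.0 and 108 CPM.

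Macrophage genes were mostly higher in tumor. Of 24, 19 were higher in tumor, 12 past a fold of 2, and 1 was higher in bone marrow, or 2 without bone marrow library 1 (median log2 fold change 1.30). Spp1, secreted by tumor macrophages, bone cells and many carcinoma cells, measured 11.6, 16.7 and 21.4 CPM in bone marrow and 1935, 2155 and 2135 CPM in tumor, and Ctsl, a lysosomal protease, 33.4, 62.6 and 64.6 and 1133, 1208 and 1059 CPM. The defining genes Adgre1 (F4/80), C1qa and Trem2 were higher by less, at 47.5, 51.3 and 5.13 CPM in bone marrow and 90.5, 148 and 11.5 CPM in tumor. Csf1r, the receptor on which macrophages depend, was the member higher in bone marrow (136 ± 10.2 against 67 ± 6.05 CPM).

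Monocyte genes were higher in bone marrow in 11 of 15 cases, with Ly6c2 at 496 against 8.22 CPM and Ccr2 at 348 against 56.6 CPM. Fn1 was higher in tumor, with 2 such genes without bone marrow library 2. Of 14 scavenger receptor and alternative macrophage genes tested, 8 were higher in bone marrow, among them Chil3 (3481 against 1.48 CPM) and Cd163 (109.5 against 5.69 CPM), and 4 in tumor. Those 4 were Arg1, the arginase gene (0.454 against 47.6 CPM), Msr1 (19.99 against 90.4), Stab1 (15.9 against 62.6) and Folr2 (0.213 against 3.74). Dendritic cell genes were higher in bone marrow in 8 of 17 cases, including Flt3 and Siglech, and higher in tumor in 3, which were Fscn1, Bst2 and Xcr1.

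Antigen presentation genes were mostly higher in tumor for class I and mixed for class II. MHC class I genes were higher in tumor in 15 of 17 cases: H2-K1 measured 359, 392 and 361 CPM in bone marrow and 1583, 1523 and 1274 CPM in tumor, Tap1, the peptide transporter, 88.4 and 255 CPM, and Nlrc5, the class I transactivator, 32.3 and 102 CPM. H2-T23 and H2-Q7 were higher in bone marrow. Of 10 class II genes, 1 was higher in tumor, or 2 without tumor library 3, 5 were higher in bone marrow and 4 were not called. Of all genes, 38.9% were higher in bone marrow. Past a fold of 2, 3 class II genes were higher in bone marrow, against 22.3% of all genes. H2-Aa was not called (74.7 ± 10.2 against 70.3 ± 18.2 CPM), and H2-Ob, of B cells, was higher in bone marrow (33.6 against 0.529 CPM).

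Interferon-stimulated genes were higher in tumor in 25 of 30 cases, with a median log2 fold change of 1.57. Cxcl10, a chemokine induced by interferon gamma, measured 1.16, 0.666 and 0.783 CPM in bone marrow and 294, 245 and 335 CPM in tumor. The guanylate-binding protein gene Gbp2 went from 22.9 ± 1.15 to 480.1 ± 104 CPM and Irf1 from 47.2 ± 6.95 to 226 ± 13.6 CPM. The 3 genes higher in bone marrow were Isg15 (80.4 against 38.9 CPM), Oas3 (178 against 93.8) and Rsad2 (1066 against 404), all antiviral genes. Ifng itself was at 0.0887 and 1.37 CPM.

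Chemokines and their receptors lay mostly on opposite sides. Of 21 ligands tested, 15 were higher in tumor, and of 17 receptors, 12 were higher in bone marrow. Ccl2, which draws monocytes, measured 0.136, 0.466 and 0.235 CPM in bone marrow and 228, 152 and 231 CPM in tumor, while its receptor gene Ccr2 was 6.16-fold higher in bone marrow. Cxcl12, which holds stem cells and neutrophils in the marrow, measured 322, 939.9 and 760.4 CPM in bone marrow and 6.24, 4.70 and 6.28 CPM in tumor, and bone marrow library 1 was the lowest of its group. Its receptor gene Cxcr4 followed it (261 ± 24.4 against 7.37 ± 2.34 CPM), and Ackr3, the scavenging receptor for the same ligand, was higher in tumor (0.615 ± 0.484 against 31.2 ± 6.18 CPM). The neutrophil chemokine genes Cxcl1, Cxcl2 and Cxcl3 were higher in tumor, at 11.8, 3.23 and 3.92 CPM, and their receptor gene Cxcr2 was at 251 CPM in bone marrow and 0.559 CPM in tumor.

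Growth factor genes were mixed. Of 15 cytokines and growth factors of myeloid cells tested, 7 were higher in tumor and 6 in bone marrow, against 39.6% and 38.9% of all genes. Csf1, the macrophage factor, and Kitl, the ligand of Kit, were at 20.9 ± 2.31 and 44.7 ± 22.2 CPM in bone marrow and 128 ± 13.5 and 221 ± 54.2 CPM in tumor. The alarmin gene Il33 measured 0.952, 0.865 and 0.626 CPM and 62.5, 78.7 and 34.6 CPM. Il1b and Osm, made by myeloid cells, were higher in bone marrow (23.8 and 11.3 against 6.31 and 1.67 CPM). The complement gene C3 was higher in bone marrow (1102 against 98.4 CPM), while the tissue factor gene F3 was higher in tumor (0.919 against 66.3 CPM).

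Genes of glycolysis and of the response to hypoxia were higher in tumor in 23 of 31 cases (median log2 fold change 1.15). Slc2a1, a glucose transporter induced by hypoxia, measured 13.5, 10.2 and 11.4 CPM in bone marrow and 128, 148 and 75.4 CPM in tumor. Slc2a3, a transporter that leukocytes and platelets use, was the reverse, at 318, 319.9 and 309 and 4.36, 7.23 and 4.99 CPM. Hexokinases split in the same way, with Hk3 higher in bone marrow (220.0 against 21.6 CPM) and Hk2 higher in tumor (76.9 against 133 CPM). Downstream, Gapdh, Ldha and Pkm were higher in tumor, at 1785, 1038 and 1552 CPM against 807, 389 and 833 CPM. Bnip3, Egln3 and Car9, hypoxia targets outside glycolysis, were at 8.86, 15.7 and 3.20 CPM in bone marrow and 105, 60.9 and 14.8 CPM in tumor.

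Cholesterol synthesis was higher in tumor in 18 of 19 genes, with none called in bone marrow and a median log2 fold change of 1.21. Hmgcs1 measured 33 ± 0.391 and 188 ± 14.5 CPM and Cyp51 18 ± 0.886 and 239 ± 15.6 CPM. The unfolded protein and integrated stress response genes were higher in tumor in 20 of 23 cases, among them Hspa5, the main chaperone of the endoplasmic reticulum (571 against 1180.4 CPM), Trib3 (3.70 against 39.6) and Ddit4 (5.17 against 107). Xbp1, which plasma cells require, was called higher in bone marrow (119 ± 2.72 against 103 ± 6.98 CPM, edgeR adjusted p = 0.0341), with an interval within a fold of 1.5. The call was lost in 8 of the alternatives tried, among them those without bone marrow library 1 or 3 (0.0833 and 0.0534) and tumor library 2 or 3 (0.176 and 0.116).

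Cell cycle inhibitors and p53 targets were mixed, with 13 of 20 higher in tumor and 5 in bone marrow. Cdkn2a and Cdkn2b, neighbours in the tumor suppressor locus, had no count in bone marrow and 2.99, 3.81 and 3.31 and 10.9, 10.7 and 7.12 CPM in tumor. Cdkn1a measured 7.60 ± 0.921 and 49 ± 1.98 CPM, while Mdm2 and Btg2 were higher in bone marrow (89.8 and 162 against 34.2 and 12.7 CPM). Trp53 was not called (97.6 ± 4.63 against 94.2 ± 6.09 CPM). Of 22 immediate early genes, 13 were higher in tumor. Jun went from 6.98 ± 1.29 to 214 ± 26.7 CPM, Fosl1 had no count in bone marrow and 14, 8.71 and 10.8 CPM in tumor, and Fos was not called (10.6 ± 7.05 against 15.2 ± 3.39 CPM), although it was called higher in tumor without bone marrow library 1 and with no filter (edgeR adjusted p = 0.0146 and 0.00549).

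**Figure D3:**
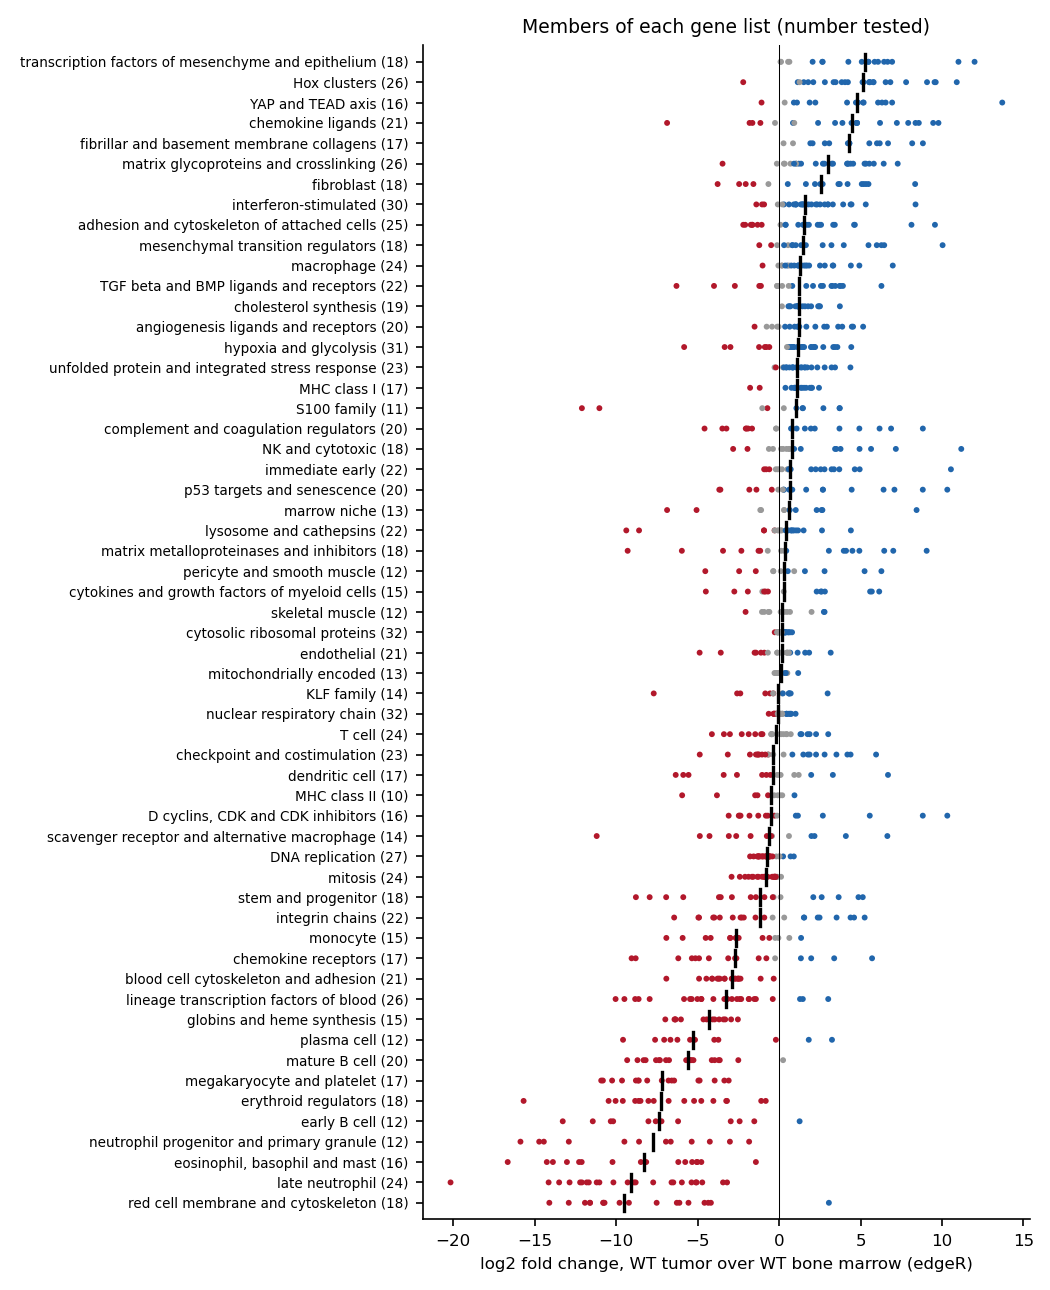
Log2 fold change of tumor over bone marrow (x axis) of each tested member of the lists with at least 10 members tested (y axis), blue where called higher in tumor, red where called higher in bone marrow and grey where not called, with each list's median as a black bar. Lists of blood lineages lie at the bottom with medians down to -9.51, and mesenchymal transcription factors at the top with a median of 5.28.

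Many gene families had members called higher in each tissue. Of all genes tested, 39.6% were higher in tumor and 38.9% in bone marrow, so a split by itself says little about a family. In the KLF family of 14 tested, 6 were higher in each tissue: Klf1, Klf3 (358 against 68.6 CPM) and Klf13 (279 against 46.7 CPM) led in bone marrow, and Klf8 (6.32, 5.66 and 5.09 CPM in bone marrow and 43.6, 44.6 and 46.6 CPM in tumor) and Klf6 (165 against 269.9 CPM) in tumor. Klf2 was not called (33.8 and 38.3 CPM). Among the D cyclins, Ccnd3 was higher in bone marrow (360.1 ± 20.3 against 64.7 ± 3.54 CPM) and Ccnd1 in tumor (5.43 ± 2.60 against 261 ± 38.8 CPM), with Ccnd2 in between (114 against 254 CPM). Transforming growth factor genes changed over too, with Tgfb1 at 228 and 98.1 CPM and Tgfb3 at 1.27 and 99.3 CPM.

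Of 22 integrin chains tested, 12 were higher in bone marrow and 8 in tumor, against 38.9% and 39.6% of all genes. Those of leukocytes and platelets, Itga4, Itgal, Itgam, Itgb2, Itga2b and Itgb3, were at 553, 244, 251, 618, 211 and 511 CPM in bone marrow. In tumor these were at 18.3, 19.6, 48.5, 85.9, 2.41 and 16.5 CPM. The matrix-binding chains Itgb1, Itgav, Itgb5 and Itgb4 went from 429, 39.6, 33.6 and 0.909 CPM to 1248, 205, 188 and 35.1 CPM.

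The S100 family holds S100a8 and S100a9, higher in bone marrow as given above, and S100a6, higher in tumor (90.7 ± 5.66 against 596 ± 28.2 CPM). The collagenase and gelatinase genes of neutrophils, Mmp8 and Mmp9, were at 1061 and 806 CPM in bone marrow and 1.68 and 74.2 CPM in tumor. Mmp14, which is held in the membrane, and Mmp2, which it activates, were at 24.5 and 2.48 CPM in bone marrow and 384 and 219 CPM in tumor. Among the cathepsins, Ctse, which red cell precursors express, was at 1124 ± 87.6 and 1.67 ± 0.3998 CPM, Ctsb was not called (805 and 898 CPM), and Ctsl was higher in tumor as given above. Anxa1 was higher in bone marrow (1524 against 331 CPM), and Anxa2, Anxa4 and Anxa5 were higher in tumor, at 728, 146 and 299 CPM.

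**Figure D4:**
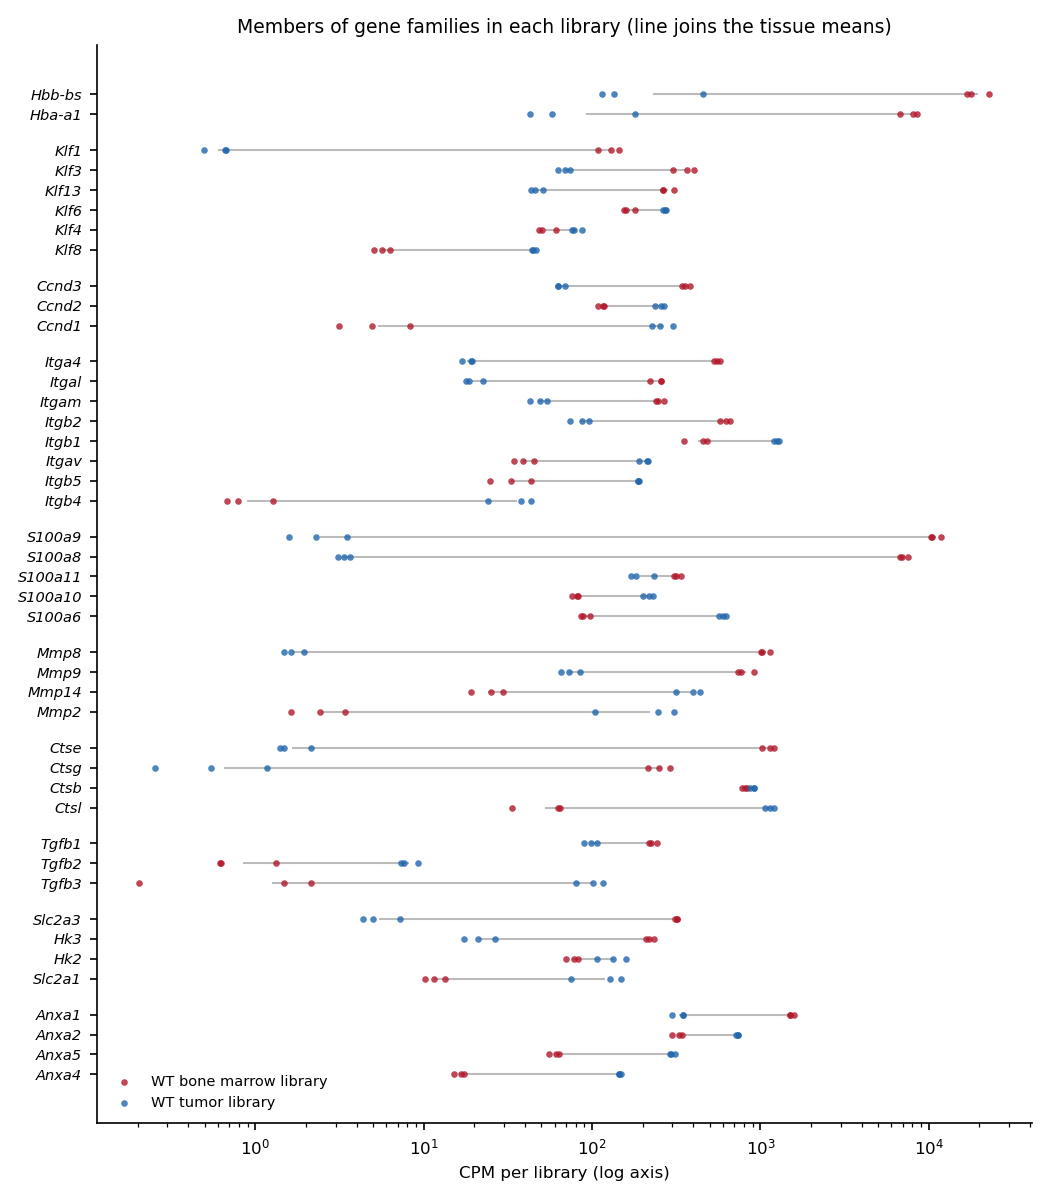
CPM of members of 10 gene families in each library on a log axis, with WT bone marrow libraries in red, WT tumor libraries in blue and a grey line between the tissue means. The members shown are a selection from each family. Among those of the KLF, cyclin, integrin, S100, matrix metalloproteinase, cathepsin, transforming growth factor, hexose entry and annexin families the order of the tissues reverses from some members to others. Both globins are higher in bone marrow.

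Genes of protein synthesis and respiration had close levels in both tissues. Of 32 cytosolic ribosomal protein genes, 23 had an interval within a fold of 1.5, against 16.8% of all genes, and none passed a fold of 2. Rpsa measured 1266, 1378 and 1610.5 CPM in bone marrow and 1426, 1375 and 1539 CPM in tumor. Of 32 nuclear genes of the respiratory chain, 22 were within a fold of 1.5, with Sdha at 222 ± 15.6 and 223 ± 15.9 CPM. The genes of highest level within a fold of 1.5 were mt-Co1, Eef1a1, mt-Nd1, mt-Nd5, mt-Nd2, Eef2, Ptma, mt-Nd4, Top2a and Hnrnpa2b1. Of these mt-Co1 measured 10698, 9625 and 12620 CPM in bone marrow and 11887, 11742 and 11548 CPM in tumor, and Eef1a1 5844, 5666 and 6179 and 5968, 6063 and 6247 CPM. Both tissues overlapped for each.

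Most epithelial markers of the labelled source of the tumor were at or near 0 there. Epcam, the general epithelial adhesion molecule, measured 0.0508, 0.594 and 0.504 CPM in tumor and 0.884, 0.133 and 0.391 CPM in bone marrow, too low to be tested. The keratins Krt8, Krt18 and Krt19, of simple epithelium, were at 0.185, 0.0543 and 0.0334 CPM in tumor, and Krt18 was higher in bone marrow, at 1.90, 2.53 and 1.10 against 0.0508, 0 and 0.112 CPM. The intestinal markers Cdx2, Vil1, Muc2 and Krt20 were at 0, 0.419, 0.0730 and 0.425 CPM in tumor, and the E-cadherin gene Cdh1 was higher in bone marrow (11.6 against 5.36 CPM). Of the simple epithelium list 4 genes were higher in tumor: Tjp1, Jup, Elf3 and Ocln, of which Tjp1 and Jup are also used by endothelial and mesenchymal cells. Summed over that list the tumor libraries held 210.2, 212 and 226 CPM, of which Tjp1 made up 174 CPM, against 71, 66 and 72.3 CPM in bone marrow. Of 9 tested colon epithelium genes, 3 were higher in tumor, Fcgbp, Cdh17 and Chga (1.51, 1.28 and 1.14 CPM there), and 5 in bone marrow. With a filter of 1 CPM these counts were 1 and 3.

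Markers of tissue next to a tumor were sparse and uneven. The skin keratins Krt5 and Krt14 were at 0 and 0.445 CPM in tumor, although Trp63, the epidermal transcription factor, measured 13, 16 and 13.1 CPM there and 0, 0.0666 and 0 CPM in bone marrow. Muscle genes varied by library in both tissues. The myosin gene Myh4 measured 4.49, 1.06 and 18 CPM in bone marrow and 22.5, 0 and 6.44 CPM in tumor, and the summed muscle list 48.4, 23.8 and 114 CPM in bone marrow and 101, 28.7 and 81 CPM in tumor. The summed adipocyte list stood at 518 CPM in tumor library 1 against 117 and 227 CPM in the others. Tumor library 1 was the highest of its group for both lists and for the globins, and the part of adjacent tissue in any result above was not tested.

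Vessel genes were measured in both tissues, and bone genes were uneven. Of 21 endothelial genes tested, 5 were higher in tumor, 6 in bone marrow and 10 not called. The summed list was lowest in bone marrow library 1, at 350 CPM against 699 and 609 CPM in libraries 2 and 3. Tumor libraries held 283, 298 and 321 CPM. Over the alternatives tried, the calls ran from 4 to 6 in tumor and from 5 to 9 in bone marrow. The median log2 fold change ran from -0.246 to 0.419. Cdh5, the endothelial cadherin, was higher in tumor (18.1 ± 8.37 against 64.9 ± 7.82 CPM), and Kdr was not called (21.5 ± 13.4 against 19.8 ± 5.17 CPM), except without bone marrow library 1, where it was higher in bone marrow (edgeR adjusted p = 0.0326). Of 20 angiogenesis genes, 15 were higher in tumor, among them the ligand gene Vegfa (29 against 64.2 CPM), the apelin gene Apln (1.13 against 39.8 CPM) and the coreceptor gene Nrp2 (18.4 against 429 CPM). In the marrow niche list Lepr, which marks the stroma that makes Cxcl12, was higher in bone marrow (58.4 ± 27.3 against 1.74 ± 0.539 CPM), and Nes was higher in tumor (0.470 ± 0.408 against 158 ± 8.67 CPM). Vcam1 was not called (501 ± 106 against 617 ± 51.9 CPM). Of 16 osteoblast and osteocyte genes 8 were tested, 4 higher in tumor and 3 in bone marrow, and 11 were under 1 CPM in tumor and 7 in bone marrow. Ibsp, a bone matrix protein, was at 92.1 ± 52.5 and 0.0187 ± 0.0324 CPM. Those higher in tumor included Spp1, Col1a1 and Phex (2.35 against 18.2 CPM). Of 8 osteoclast genes tested, 5 were higher in bone marrow, among them Acp5, the tartrate-resistant phosphatase (58.5 against 15 CPM), and 2 in tumor.

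The calls were spread over the chromosomes unevenly. On chromosome 8, 50.7% of 823 tested genes were higher in tumor and 28.4% higher in bone marrow, with a median log2 fold change of 0.427. Among the autosomes, chromosomes 12 and 7 lay at the other end, with medians of -0.294 and -0.242. Chromosome Y, with 8 genes tested, had a median of -3.08. Among genes of at least 5 CPM in both tissues, chromosome 8 still had a median of 0.39 over 522 genes. Chromosomes 7, 18 and 12 then had medians of -0.174, -0.173 and -0.157. The X-linked Xist measured 0.816, 0.799 and 1.25 CPM in bone marrow and 0.761, 1.14 and 1.34 CPM in tumor. The Y-linked genes Ddx3y, Eif2s3y, Kdm5d and Uty were lower in tumor, at 127, 99.3, 43 and 36.7 CPM in bone marrow and 15.6, 8.0, 3.71 and 4.21 CPM in tumor. The sources used here give the sex of neither the mice nor the cell line. Protein-coding genes had a median of 0.0945, and 400 antisense genes a median of -0.959, but reads of antisense genes and of the genes they overlap cannot be told apart without the strand setting.

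The same tissue difference was measured in 6 other libraries, with the genotype label KLF K74R and titles that read KO, in the same tissues and with tumors of the same line. In a model of all 12 bone marrow and tumor libraries, 13654 of 16917 genes tested (80.7%) were called between K74R tumor and K74R bone marrow. Of the 12350 genes called in WT, 12187 (98.7%) had the same sign in K74R, and of the 6673 past a fold of 2 in WT, 6661 did. Klf1 had a log2 fold change of -7.70 in WT and -7.95 in K74R, Col3a1 8.17 and 7.05, and Ngp, whose size depends on the prior count, -20.17 and -17.45. Tested against each other, the tissue differences of the genotypes differed for 73 of 16917 genes (0.432%), with 2817 genes at an unadjusted p under 0.05. In the count table the columns of the WT tumors carry a letter R that those of the K74R tumors and of all bone marrow libraries lack. Its meaning was not found in the labels. Any difference in handling it may mark cannot be told apart from genotype in the tumors. Nor can it be told apart from tissue in the main comparison of WT tumor with WT bone marrow. The count of 73 depended on single libraries. It was 18, 247 and 18 without WT bone marrow library 1, 2 or 3, 9 and 8 without WT tumor library 1 or 2, 6 and 11 without K74R bone marrow library 2 or 3, and 303, 9 and 9 without K74R tumor library 1, 2 or 3.

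**Figure D5:**
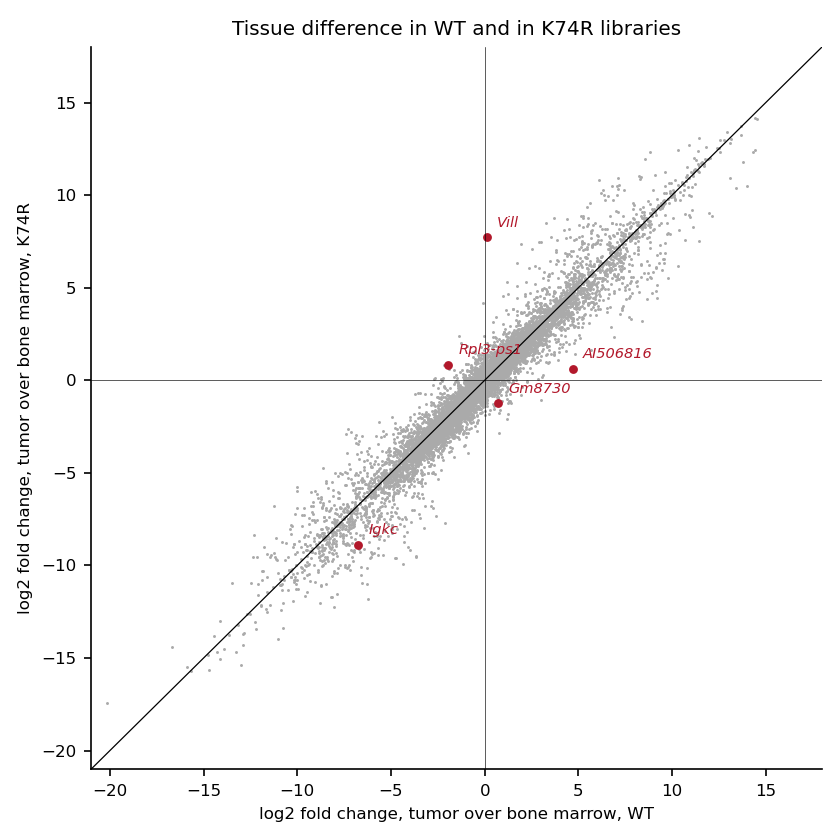
Log2 fold change of tumor over bone marrow in WT libraries (x axis) and in K74R libraries (y axis) for each gene tested in WT, with the line of equal change in black and the 5 genes of smallest p for the difference between genotypes in red. Most genes follow the line, and Vill, at 0.11 in WT and 7.74 in K74R, lies farthest from it among the 5.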

How the data were processed

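The deposited table holds raw counts, whole numbers per gene, with a column for each of the 16 libraries. TRIzol extraction and KAPA mRNA HyperPrep libraries are stated per the labels' protocols. The submitters' processing notes name Trimmomatic 0.38, HISAT2 2.1.0, featureCounts 1.6.0 and the build GRCm38. The sources used here give neither the strand setting nor the handling of reads with several matches, so near-identical, overlapping and antisense genes are uncertain.

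All 55536 gene identifiers were found in GENCODE release M21. The analysis ran in R 4.3.3 with edgeR 4.0.16. It used the filterByExpr filter, TMM scaling (trimmed mean of M-values) and quasi-likelihood tests (glmQLFit, glmQLFTest, glmTreat), with a prior count of 0.125 and Benjamini-Hochberg adjustment over all genes tested. The script was tested on simulated data. An SE is the size of the log2 fold change divided by the square root of F. The K74R and genotype contrasts came from a model of 12 libraries in 4 groups. Alternatives used DESeq2 1.42.0 and limma 3.58.1 (voom), other scalings and filters, other sets of libraries, a replicate block, each library left out, and globin, mitochondrial and immunoglobulin genes removed.

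The comparison, its 65 gene lists (1147 of 1149 distinct genes matched) and the naming rule were chosen with earlier results of these data known. The rule took the 15 largest fold changes in each direction. These came from called genes with an average log2 CPM of at least 5, no overlap between the tissues and a proper name. The 15 most abundant genes of each tissue, the 10 most abundant within a fold of 1.5 and the 5 genes of smallest p between genotypes were added. So were Klf1, Pdcd1, Cd274, Ptprc, Epcam, Krt18 and Xist, and list members as examples and exceptions. Lists are described by counts and medians, with no test. A few list members are not reported here by name.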

Additional observations from a re-analysis of the deposited data

Results flagged for a closer look

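The 5 genes with the smallest p for a difference between genotypes in the tissue difference were picked out by that test, an interaction in edgeR's quasi-likelihood model of 12 libraries, Benjamini-Hochberg adjusted over 16917 genes. Vill, a villin-like gene, measured 33.0, 33.3 and 36.6 CPM in WT bone marrow, 38.4, 39.8 and 34.4 CPM in WT tumor, 0, 0.0706 and 0.359 CPM in K74R bone marrow and 36.3, 31.5 and 27.6 CPM in K74R tumor. Its tissue difference was 7.61 higher in K74R on the log2 scale (SE 0.38, adjusted p = 4.79e-07), and K74R bone marrow stood apart from the other 3 groups.

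AI506816 had a difference of -4.08, with 7.82, 9.94 and 8.34 CPM in WT bone marrow, 214, 109 and 107 CPM in K74R bone marrow and 212 CPM or more in every tumor library. Rpl3-ps1, a ribosomal protein pseudogene, had a difference of 2.77, with 56.6, 57.0 and 61.4 CPM in WT bone marrow and 5.94, 7.06 and 6.395 CPM in K74R bone marrow. Gm8730 had a difference of -1.96, with 10.01, 10.2 and 10.3 CPM in WT bone marrow and 54.7, 55.3 and 49.6 CPM in K74R bone marrow. Igkc, the kappa constant region, had a difference of -2.15, with 3.21, 3.57 and 3.64 CPM in WT tumor and 0.707, 1.35 and 1.18 CPM in K74R tumor. The adjusted p was 5.88e-05 for AI506816 and Rpl3-ps1, 7.64e-05 for Gm8730 and 0.00162 for Igkc, and the Igkc call was lost with all 16 libraries in 1 model (adjusted p = 0.0541). Reads of the pseudogene and of other copies of ribosomal protein genes may be divided among them.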

How the results depend on the processing

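The 7 counts of the WT comparison stayed within 1.5 times their main values under all alternatives, as did the K74R count. Of 12350 calls, 11524 were kept with library size alone, the alternative that kept fewest, and 0 were called in the opposite direction in any. Library size alone moved the median of all genes from 0.021 to 0.213 and the share of calls higher in tumor from 50.4% to 57.3%. Of 277 named genes called, 274 were called in every alternative that tested them; the others were Orc6, Xbp1 and Top2a, whose adjusted p was 0.0903 with all 16 libraries in 1 model. The 73 genes that differed between genotypes became 7 with all 16 libraries in 1 model and between 6 and 303 with 1 library left out; the cause was not tested.

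Deviations of same-numbered bone marrow and tumor libraries from their group means had correlations of -0.0254, 0.0557 and 0.0477. Libraries 2 and 3 of each tissue correlated best with their own number, and library 1 did not. Such small values cannot show whether same-numbered libraries came from the same mouse, and the main test used no pairing. Among genes not called, Hoxb3 was called in 8 alternatives and Ctsb, Vcam1, Loxl2, Col12a1 and CT010467.1 in 4 each. With the replicate block 12192 genes were called, and 58 between genotypes. Log2 fold changes that changed sign all belonged to genes not called. With library size alone these were Eef2 (0.12), H2-Aa (0.10), Hnrnpa2b1 (0.093), Kdr (0.070), Loxl1 (0.044), mt-Nd1 (0.12), mt-Nd4 (0.14), mt-Nd5 (0.10) and Trp53 (0.14). With upper quartile factors they were mt-Nd4 (0.00057) and Trp53 (0.0055), and with no filter mt-Nd4 (0.012) and Trp53 (0.016). With relative log expression factors, the filter of 1 CPM and DESeq2, Ptma gave -0.0089, -0.022 and -0.0090 and Sdha -0.0084, -0.021 and -0.0083. With limma-voom Kdr gave 0.15, Loxl1 0.24, Myh4 -1.55 and Ptma -0.0020, and with the replicate block Kdr 0.076, Loxl1 0.092, Myh4 -0.11 and Ptma -0.0017. Without globin, mitochondrial and immunoglobulin genes Ptma gave -0.0010. With 1 library left out, the values ran for Col1a2 from -0.053 to 0.98, H2-Aa from -0.24 to 0.12, Kdr from -0.55 to 0.31, Lox from -0.28 to 0.80, Loxl1 from -0.60 to 0.47, mt-Co1 from -0.0057 to 0.19, mt-Nd1 from -0.18 to 0.032, mt-Nd2 from -0.011 to 0.24, mt-Nd4 from -0.15 to 0.0057, mt-Nd5 from -0.23 to 0.027, Myh4 from -1.27 to 1.78, Ptma from -0.063 to 0.076, Rpsa from -0.049 to 0.11, Sdha from -0.065 to 0.080 and Trp53 from -0.11 to 0.021.

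Depth limits genes absent from a tissue, whose folds are bounds set by 3 counts over a group. The 3 libraries per tissue and an unstated source of replicates limit every error given.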
